A study of Mus musculus with 12 samples.

Results

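The Kruppel-like factors (KLFs) examined here are 10 genes of one family of zinc-finger transcription factors: Klf2, Klf3, Klf4, Klf5, Klf6, Klf7, Klf9, Klf10, Klf13 and Klf15. They were found by matching these gene symbols in the deposited count table, and the set of names was drawn up with earlier results of these data known. It is not the whole family: Klf1, Klf8, Klf11, Klf12, Klf14 and Klf16 were also tested and are counted with the related SP genes. The table holds 27179 genes, and all 10 members were among the 16175 genes with enough counts to be tested. The samples were epididymal fat pads (eWAT, a white fat depot of the abdomen that lies along the epididymis) of 12 chow-fed male C57BL/6J mice. Saline was injected intraperitoneally in the 6 vehicle mice, and epinephrine at 0.5 mg/kg body weight was given by the same route to the other 6. Fat was collected 1 h later in both groups. Epinephrine, the hormone of the adrenal medulla, binds alpha- and beta-adrenergic receptors, and the study's title names adrenergic lipolysis as its subject. No allele or transgene separated the groups. The listed ages ran from 12 to 17 weeks in vehicle mice and from 18 to 23 weeks in epinephrine mice, so age and treatment cannot be told apart. The ages rise by exactly 1 week from each sample to the next in the listing, and so with the replicate number within each group. Whether they are the animals' real ages is not known, and every value below with listed age as a covariate depends on that. Within a group that covariate cannot be told apart from the replicate number.

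The KLFs bind GC-rich and CACCC-containing DNA through C-terminal zinc fingers, while their N-terminal parts differ and recruit activators or repressors. Several members, Klf2, Klf4 and Klf6 among them, are known for rapid and short-lived transcription after a stimulus. In fat tissue the family is known from adipocyte differentiation, where Klf4, Klf5, Klf6, Klf9 and Klf15 favour it and Klf2, Klf3 and Klf7 oppose it, and from hormone-controlled metabolism in mature cells.

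The libraries held between 24821600 and 34405400 counts each. The adipocyte marker Adipoq, which encodes adiponectin, stood at 2706 ± 844 CPM (counts relative to library size, scaled by the trimmed mean of M values, TMM) with vehicle and 2657 ± 856 CPM after epinephrine (SD, n = 6 mice a group). RNA of the neighbouring epididymis was also present, unevenly: 12 epididymis markers together took between 0.00093% and 4.61% of the counts with vehicle and between 0.00305% and 3.26% with epinephrine. In vehicle 2, epinephrine 1 and epinephrine 2 the epididymal gene Gpx5 alone exceeded 0.5% of the counts. In both groups these were also libraries with low levels of several KLFs, so results are given without these 3 libraries where that changes a call. In bulk tissue, fewer cells of a type and less RNA per cell cannot be told apart.

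Upstream sequences of the members are shown for the 2 genes that rose most, Klf6 and Klf4, for Klf2, the close paralog of Klf4, and for Klf15, which lay at the lower end of the fold changes. They are RefSeq promoter sequences (GRCm38.p6), matched for 8 of the 10 genes (all but Klf5 and Klf10), from 250 to 31 bases before the annotated start, 5′ to 3′ on the gene's strand. Capitals mark matches on either strand to the cAMP response element (CRE) half-site TGACG, the activator protein 1 (AP-1) site TGANTCA, the MEF2 site, the CArG box of serum response factor, the heat shock element GAANNTTC, or the CCAAT box. The half-site also lies within the full CRE, TGACGTCA.
Klf6, chr13:5861239-5861458, plus strand: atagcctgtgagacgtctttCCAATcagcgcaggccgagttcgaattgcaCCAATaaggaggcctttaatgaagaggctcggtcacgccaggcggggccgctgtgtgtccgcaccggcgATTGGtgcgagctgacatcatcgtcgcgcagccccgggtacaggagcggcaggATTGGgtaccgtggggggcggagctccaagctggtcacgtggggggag
Klf4, chr4:55532506-55532725, minus strand: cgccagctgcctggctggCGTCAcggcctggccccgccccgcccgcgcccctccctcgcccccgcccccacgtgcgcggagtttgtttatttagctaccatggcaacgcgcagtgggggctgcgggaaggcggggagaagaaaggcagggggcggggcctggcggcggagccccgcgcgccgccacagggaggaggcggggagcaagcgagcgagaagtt
Klf2, chr8:72318812-72319031, plus strand: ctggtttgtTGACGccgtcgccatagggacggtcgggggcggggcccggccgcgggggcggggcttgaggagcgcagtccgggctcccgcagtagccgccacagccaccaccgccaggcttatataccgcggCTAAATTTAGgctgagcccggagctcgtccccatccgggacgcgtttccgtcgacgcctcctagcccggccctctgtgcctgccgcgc
Klf15, chr6:90462326-90462545, plus strand: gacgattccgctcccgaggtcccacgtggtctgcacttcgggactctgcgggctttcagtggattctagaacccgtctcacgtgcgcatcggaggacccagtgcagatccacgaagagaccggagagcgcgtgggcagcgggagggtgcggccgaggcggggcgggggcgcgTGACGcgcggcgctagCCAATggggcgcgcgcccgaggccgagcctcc

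The Klf6 window holds 4 CCAAT boxes, 2 on each strand, a number reached in 195 (0.594%) of 32851 promoter windows of the same length. At least 1 CCAAT box is present in 31% of those windows and in 4 of the 8 members' (Klf6, Klf9, Klf13 and Klf15). The CRE half-site occurs in 5 of the 8, namely Klf2, Klf4, Klf9, Klf13 and Klf15, and in 14.8% of all windows. The full CRE is in none of the 8 and in 1.14% of all windows. The Klf2 window holds a MEF2 site, CTAAATTTAG, 118 bases before the start, and MEF2 sites are in 2.60% of all windows. The AP-1 site is in the Klf9 window and in 6.12% of all windows, whereas neither the CArG box (1.30% of all windows) nor the heat shock element (5.73%) occurs in any of the 8. The GC box GGGCGG, which lies among the sites that the family's own zinc fingers recognise, is in 7 of the 8 windows and in 28.5% of all, and CACCC is in 4 of the 8 and in 47.8% of all. The windows shown are rich in G and C, at 63.2% in Klf6, 74.5% in Klf4, 71.4% in Klf2 and 70.9% in Klf15. The 32851 windows were not matched to the members' in G and C content. What that content adds to these shares was not tested. For Klf15 the annotated start used lies 1533 bases inside the gene. The start used for Klf7, whose window is counted but not shown, also lies inside its gene. A match is a description of the letters and not evidence of a bound site.

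Of the 10 members, 2 rose with epinephrine (Klf6 and Klf4) and 1 fell (Klf10), by edgeR's quasi-likelihood test with Benjamini-Hochberg adjustment over all tested genes at 0.05. Among all 16175 tested genes 428 rose (2.65%) and 579 fell (3.58%). The median log2 fold change of the members was 0.09 and that of all tested genes -0.00059. Klf6 was the only member whose groups did not overlap; over all tested genes every epinephrine library lay above every vehicle library in 2.04% and below in 2.74%.

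**Figure D1:**
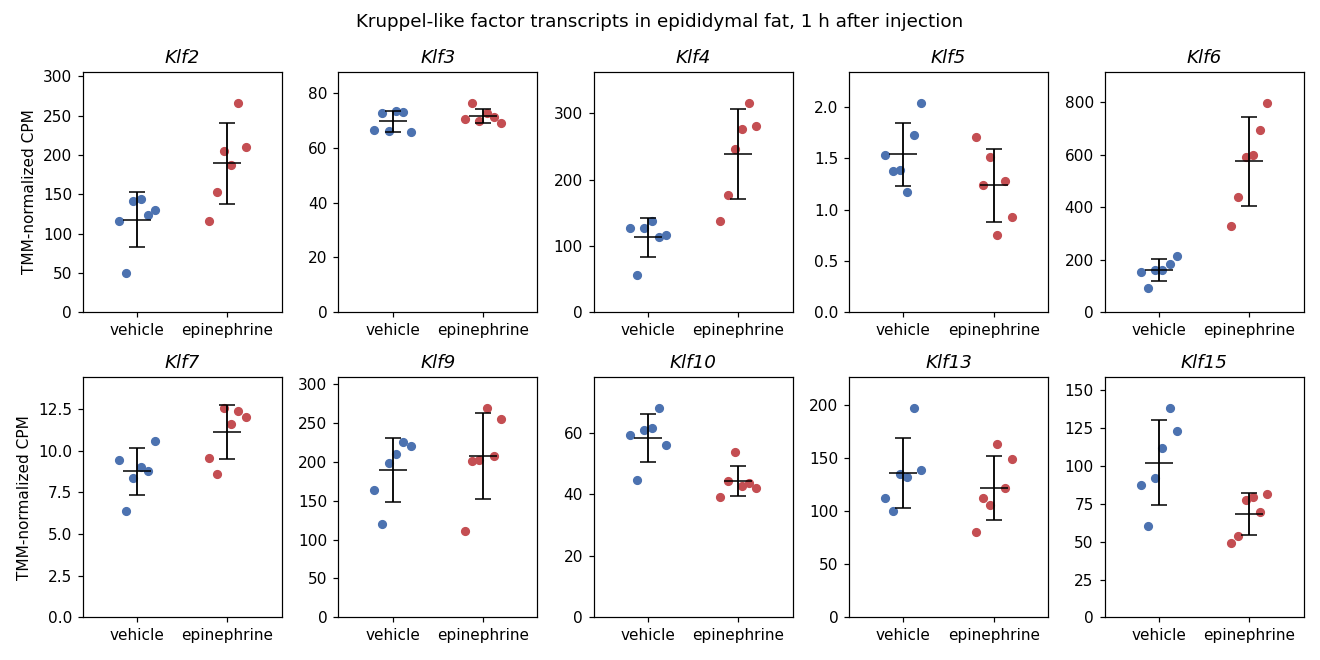
TMM-normalized CPM (vertical axis, linear from 0, a separate scale for each gene) of the 10 genes in each of the 6 vehicle (blue) and 6 epinephrine (red) libraries, with the mean and SD as bars; within a group the points run from replicate 1 at the left to 6 at the right. The Klf6 groups are apart, at 91.3 to 213 against 329 to 797 CPM, while the Klf3 groups lie on top of each other.

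Klf6 (Entrez gene 23849, chr13:5861489-5870393, RefSeq positions on GRCm38.p6 here and for the other members), a widely expressed activator known as an immediate-early gene after tissue injury and as a factor that lowers the preadipocyte gene Dlk1, had the largest change of the family. Its level in vehicle libraries 1 to 6 was 153, 91.3, 161, 162, 184 and 213 CPM, and in epinephrine libraries 1 to 6 it was 329, 438, 592, 599, 693 and 797 CPM. The lowest epinephrine library was thus above the highest vehicle library. The means were 161 ± 40.5 and 575 ± 169 CPM (SD, n = 6 each), a rise of 3.58-fold (95% interval 2.48 to 5.15; log2 fold change 1.84, SE 0.24; edgeR adjusted p = 0.000923). By p, Klf6 ranked 125 among the tested genes. The log2 fold change stayed between 1.72 and 1.96 when any 1 library was left out, and the highest adjusted p was 0.00421. It was 1.94 without the 3 libraries rich in Gpx5 (adjusted p = 2.96e-05). With listed age as a covariate it was 0.68 (adjusted p = 0.0983).

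Klf7 (gene 93691, chr1:64029448-64122345), the nearest paralog of Klf6, is a factor of neuronal growth that restrains adipocyte differentiation. Its lowest, median and highest values were 6.36, 8.91 and 10.6 CPM with vehicle and 8.61, 11.8 and 12.5 CPM with epinephrine, and the groups overlapped. The change was 0.34 on the log2 scale (SE 0.13; edgeR adjusted p = 0.194), which did not pass. It passed without the 3 Gpx5-rich libraries, at 0.40 (adjusted p = 0.0168), and with the epididymis score as a covariate, at 0.37 (adjusted p = 0.0264). The 2 paralogs were also compared directly. The log2 ratio of their counts within a library was 4.17 ± 0.21 with vehicle and 5.64 ± 0.31 with epinephrine, without overlap (SD, n = 6 a group). The exact permutation test gave p = 0.00216 (two-sided), the smallest the design allows, and 0.00433 after adjustment over 4 paralog pairs. Paired by replicate number, the adjusted p was 0.0625 (exact sign-flip test), where 6 pairs allow no unadjusted p below 0.03125.

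Klf4 (gene 16600, chr4:55527137-55532475), a factor of epithelial and endothelial cells that also activates Cebpb early in adipocyte differentiation, rose by a smaller factor. It stood at 128, 56.3, 126, 138, 114 and 116 CPM in vehicle libraries 1 to 6 and at 138, 176, 247, 277, 315 and 281 CPM in epinephrine libraries 1 to 6. The groups met at 1 point, since epinephrine 1, at 137.6 CPM, lay just under vehicle 4, at 138.1 CPM, and the other 5 epinephrine libraries were above all vehicle libraries. The means were 113 ± 29.2 and 239 ± 68.3 CPM (SD, n = 6 each), a rise of 2.11-fold (95% interval 1.46 to 3.05; log2 fold change 1.08, SE 0.24; edgeR adjusted p = 0.0216). The adjusted p was 0.0552 without epinephrine 4, 0.0552 without epinephrine 5 and 0.0503 without epinephrine 6. Without the 3 Gpx5-rich libraries the log2 fold change was 1.17 (adjusted p = 3.80e-05), and with age as a covariate it was 0.25 (adjusted p = 0.687).

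Klf2 (gene 16598, chr8:72319062-72321654), the endothelial factor induced by blood flow, which also keeps T cells quiescent, did not pass the test. It stood at 116, 49.3, 142, 144, 124 and 129 CPM in vehicle libraries 1 to 6 and at 116, 153, 205, 187, 266 and 210 CPM in epinephrine libraries 1 to 6. In 5 of the 6 epinephrine libraries Klf2 exceeded every vehicle library. The means were 117 ± 35.0 and 189.5 ± 51.5 CPM, a 1.62-fold difference (95% interval 1.10 to 2.38; log2 0.69, SE 0.26; edgeR adjusted p = 0.167). The call depended on the libraries used: without the 3 Gpx5-rich libraries the log2 fold change was 0.73 and passed (adjusted p = 0.00300), and with age as a covariate it was -0.21 (adjusted p = 0.734). Within a library, the log2 ratio of Klf2 to Klf4 counts was 0.03 ± 0.16 with vehicle and -0.33 ± 0.14 with epinephrine, without overlap (exact permutation p = 0.00216, adjusted 0.00433). The groups came close, with vehicle 2 at -0.191 and epinephrine 2 at -0.206. Paired by replicate number, the adjusted p was 0.0625 (exact sign-flip test), where 6 pairs allow no unadjusted p below 0.03125. Vehicle 2 was the lowest library of both genes in its group. It also had the lowest summed endothelial markers of the vehicle libraries, at 678 against 1239 to 1546 CPM. Its summed adipocyte (9643 CPM), macrophage (826 CPM) and fibroblast and progenitor (3208 CPM) markers were the lowest of the vehicle libraries too. The part of these in the result was not tested.

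Klf10 (gene 21847, chr15:38291464-38300711), a repressor induced by transforming growth factor beta and also known as TIEG1, fell. Its values were 59.3, 44.7, 60.7, 61.4, 67.8 and 55.9 CPM in vehicle libraries 1 to 6 and 39.1, 44.4, 53.6, 42.7, 43.8 and 42.2 CPM in epinephrine libraries 1 to 6. All epinephrine libraries but epinephrine 3 lay below the lowest vehicle library. The means were 58.3 ± 7.72 and 44.3 ± 4.93 CPM (SD, n = 6 each), a ratio of 0.760 (95% interval 0.652 to 0.886; log2 fold change -0.40, SE 0.10; edgeR adjusted p = 0.0398). This call was close to the threshold: the adjusted p was 0.0712 with the replicate number as a block and 0.0551 with DESeq2's size factors (RLE) in the same test, and when 1 library at a time was left out it held in 2 of 12 fits, those without vehicle 2 and without epinephrine 3. The log2 fold change nevertheless lay between -0.46 and -0.35 in all 12. Klf11, the closest relative of Klf10, was at 33.1 ± 8.64 and 29.3 ± 7.496 CPM (log2 fold change -0.17, adjusted p = 0.820). The log2 ratio of Klf10 to Klf11 was 0.86 ± 0.32 and 0.63 ± 0.37 (exact permutation p = 0.273, adjusted 0.273), so a difference between this pair was not detected.

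**Figure D2:**
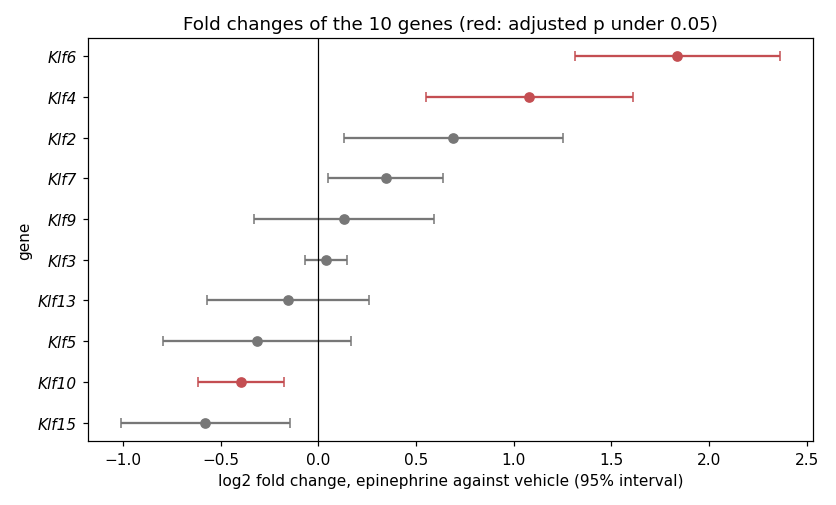
Log2 fold change of each of the 10 genes, epinephrine against vehicle (horizontal axis, points), with 95% intervals (bars), from edgeR's quasi-likelihood fit of 6 against 6 libraries; red marks an adjusted p under 0.05. Values run from 1.84 for Klf6 to -0.58 for Klf15, and only Klf6, Klf4 and Klf10 are red.

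Klf15, Klf9 and Klf13 are members known for hormone and metabolic control. Klf15 (gene 66277, chr6:90461043-90491803), a glucocorticoid-induced factor of amino acid breakdown and glucose transport, had its highest epinephrine library, at 81.4 CPM, below the vehicle median of 102 CPM. Its lowest, median and highest values were 60.4, 102 and 138 CPM with vehicle and 49.1, 73.5 and 81.4 CPM with epinephrine. The groups overlapped through vehicle 2, the lowest vehicle library. The log2 fold change was -0.58 (SE 0.20; ratio 0.670, 95% interval 0.496 to 0.904; edgeR adjusted p = 0.131) and did not pass. With the replicate number as a block it was -0.56 and passed (adjusted p = 0.0492), as it did without the 3 Gpx5-rich libraries (-0.52, adjusted p = 0.0385) and without vehicle 2 alone (adjusted p = 0.0288). It also passed with library-size scaling (adjusted p = 0.0258), with the epididymis score as a covariate (adjusted p = 0.0161) and with listed age as a covariate (-1.50, adjusted p = 0.00478). It did not pass with upper quartile scaling (adjusted p = 0.102), RLE scaling (0.152), no filter (0.171) or DESeq2 (0.0644). Nor did it pass with limma on the variance-stabilized values (adjusted p = 0.185) or in replicates 1 to 3 (0.770). Klf15 and Klf10 were each called in 6 of the 12 settings other than leaving 1 library out. With 1 library left out, Klf15 was called in 1 of 12 fits, with adjusted p up to 0.254.

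Klf9 (gene 16601, chr19:23141226-23168129), a factor induced by glucocorticoid and thyroid hormone, had a lowest, median and highest value of 120, 204 and 225 CPM with vehicle and 111, 205 and 268 CPM with epinephrine. On the log2 scale the change was 0.13 (SE 0.21, 95% interval -0.33 to 0.59; edgeR adjusted p = 0.874), an interval that leaves room for a change of either sign. Klf13 (gene 50794, chr7:63886351-63938915), an activator of the chemokine gene Ccl5 in T cells, ranged from 100 to 196 CPM (median 133) with vehicle and from 80.2 to 163 CPM (median 117) with epinephrine. On that scale the change was -0.16 (SE 0.19, adjusted p = 0.807), and with listed age as a covariate it was -1.02 and passed (adjusted p = 0.0260). The log2 ratio of Klf9 to Klf13 was 0.48 ± 0.20 and 0.75 ± 0.16 with overlapping groups (exact permutation p = 0.0281, adjusted 0.0375). That difference of 0.27 lost its call in 9 of the 12 fits that left out 1 library, with adjusted p up to 0.0837. The count table also lists Mir1192, which overlaps Klf9, and E030018B13Rik, which overlaps Klf13; the strand setting of the counting is not given in the sources used here.

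Klf3 and Klf5 did not pass either. Klf3 (gene 16599, chr5:64803521-64832901), a repressor that binds the corepressor CtBP, was the steadiest member, from 65.9 to 73.5 CPM with vehicle and from 69.3 to 76.4 CPM with epinephrine. Its log2 fold change of 0.04 had the narrowest interval of the 10 genes, -0.07 to 0.15 (edgeR adjusted p = 0.806), and its sign turned with scaling by library size alone (-0.07). Klf5 (gene 12224, chr14:99298691-99313412), an activator of Pparg in adipocyte differentiation, was the rarest, at 1.54 ± 0.306 CPM with vehicle and 1.24 ± 0.358 with epinephrine (17 to 69 counts per library). The log2 fold change of -0.32 (SE 0.22, adjusted p = 0.564) did not pass.

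**Figure D3:**
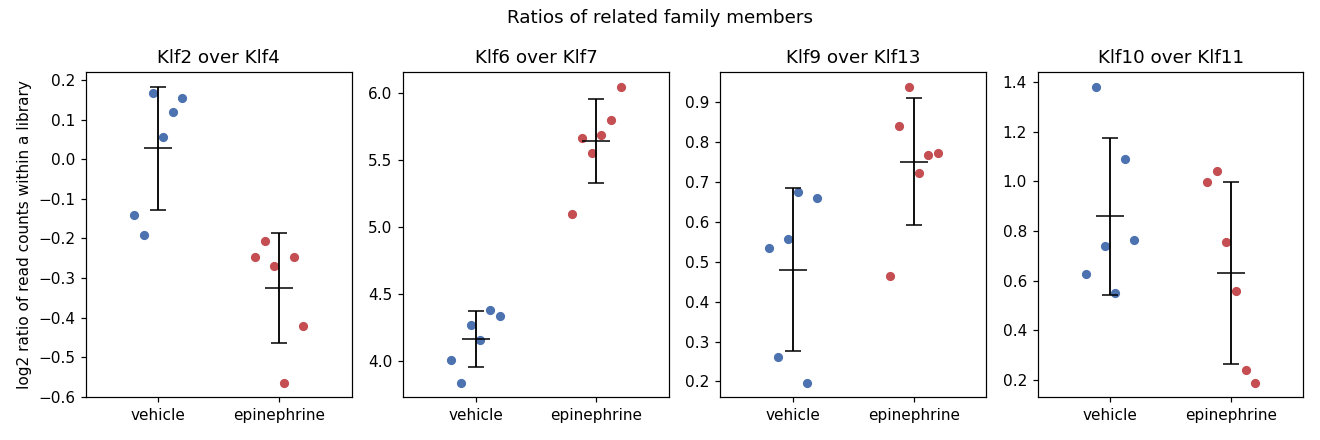
Log2 ratio of the counts of 2 paralogs within each library (vertical axis, 0.5 added to each count) for 4 pairs, in 6 vehicle (blue) and 6 epinephrine (red) libraries, with mean and SD. The Klf6 to Klf7 ratio moved from 4.17 to 5.64 and the Klf2 to Klf4 ratio from 0.03 to -0.33, both without overlap. For Klf2 to Klf4 the groups came close, at -0.191 in vehicle 2 and -0.206 in epinephrine 2.

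Levels of different genes are compared here as CPM per kb of gene length (per-kb level). With vehicle the order was Klf2 (64.6 ± 19.3), Klf9 (58.0 ± 12.4), Klf15 (44.6 ± 12.2), Klf6 (38.1 ± 9.60), Klf4 (37.2 ± 9.58), Klf3 (30.2 ± 1.66), Klf13 (21.2 ± 5.19), Klf10 (19.1 ± 2.54), Klf7 (6.51 ± 1.04) and Klf5 (0.890 ± 0.177). In 6 of the 9 neighbouring pairs of that order the ranges of mean ± SD overlapped; the steps from Klf3 to Klf13, from Klf10 to Klf7 and from Klf7 to Klf5 were larger than the spread. With epinephrine Klf6 came first, at a per-kb level of 136 ± 40.1, ahead of Klf2 (104 ± 28.3), Klf4 (78.5 ± 22.4) and Klf9 (63.5 ± 17.0), each overlapping with the next. Klf15, in the third place with vehicle, came after Klf3, at 29.8 ± 6.01 against 30.99 ± 1.12. Relative to all tested genes, the per-kb vehicle levels of the members ran from the percentile 15.5 (Klf5) to 93.3 (Klf2).

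The summed per-kb level of the 10 genes was 320 ± 64.5 with vehicle and 486 ± 110.5 with epinephrine, with overlapping ranges (198 to 371 and 306 to 587). As shares of that sum, which do not depend on library scaling, the members' weights shifted. Klf6 made up 11.8% ± 1.21 with vehicle (10.8% to 14.1%) and 27.7% ± 2.46 with epinephrine (25.4% to 32.2%). The share of Klf15 was 13.8% ± 1.58 (11.9% to 16.2%) and 6.21% ± 0.640 (5.21% to 6.98%), so that the 2 sets of shares did not overlap for either gene. Klf4 also did not overlap, with 11.5% ± 1.73 (9.35% to 13.8%) and 16.0% ± 1.32 (14.4% to 17.8%). The shares of Klf9 (16.5% to 18.8% and 10.9% to 15.4%), Klf10 (5.12% to 7.42% and 2.36% to 4.19%) and Klf13 (5.79% to 8.29% and 3.26% to 4.77%) did not overlap either, all lower with epinephrine. Klf2 took 19.8% ± 3.42 and 21.4% ± 2.12, and its ranges overlapped, as did those of Klf3, Klf5 and Klf7. Shares sum to a fixed total, so a gain of Klf6 lowers the others' shares by construction. In CPM, Klf6 was the only member whose groups did not overlap. The log2 fold change of Klf9 in CPM was 0.13 and not called, while its share was lower. This measure has no counterpart over all tested genes.

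**Figure D4:**
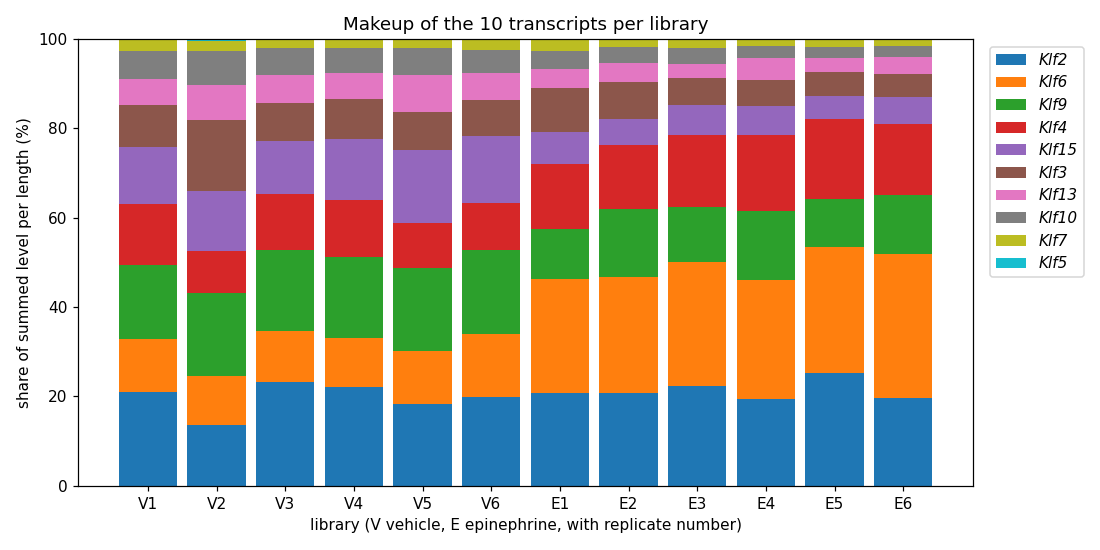
Share of each gene in the summed CPM per kb of the 10 genes (vertical axis, percent, stacked to the full sum) in each of the 12 libraries. The Klf6 band widens from 10.8% to 14.1% in vehicle libraries to 25.4% to 32.2% in epinephrine libraries, and the Klf15 band narrows.

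Calls were also made in subsets of the libraries. Replicates 1 to 3 alone, 3 against 3 libraries, gave no member past the threshold, with Klf6 at a log2 fold change of 1.76 (edgeR adjusted p = 0.259), and no gene of the whole table passed there (1356 genes had an unadjusted p under 0.05). Replicates 4 to 6 alone gave Klf2, Klf4 and Klf6 as higher and Klf10 and Klf15 as lower, with log2 fold changes of 0.74, 1.24, 1.90, -0.53 and -0.70; over all genes 4.40% rose and 3.99% fell there. The epididymis markers took 0.395% to 4.61% of the counts in the libraries numbered 1 to 3 and 0.00093% to 0.120% in those numbered 4 to 6; their part in the difference was not tested, and neither was the difference itself. Without the 3 Gpx5-rich libraries the members higher were Klf2, Klf4, Klf6 and Klf7 and those lower were Klf10 and Klf15, where over all genes 4.87% rose and 6.37% fell. With the replicate number as a block they were Klf4 and Klf6, and Klf15, against 2.38% and 2.26% of all genes.

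The rest of the KLF and SP family, the relatives with the same zinc fingers, showed no call. Of 16 listed genes 12 were tested and none passed, with a median log2 fold change of -0.07. The KLF genes of this list are those left when the members were chosen with earlier results of these data known. No contrast with the members is drawn from it. The smallest p values were those of Sp3 (-0.19, edgeR adjusted p = 0.462), whose product binds GC boxes as the KLFs do, and Sp1 (-0.12, adjusted p = 0.470). Klf14, a maternally expressed gene of adipocytes, was at 1.82 ± 0.936 CPM and 2.85 ± 1.21 CPM (0.65, adjusted p = 0.574). Of 15 corepressors, coactivators and ubiquitin ligases that act with KLF proteins, only the acetyltransferase gene Crebbp rose (45.5 ± 3.22 to 52.7 ± 2.23 CPM, log2 fold change 0.21, adjusted p = 0.0494), close to the threshold. Crebbp did not pass with the replicate block (adjusted p = 0.0988) or without the 3 Gpx5-rich libraries (adjusted p = 0.0816), and it kept its call in 3 of 12 fits that left out 1 library and in 4 of 12 other settings.

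Among 18 kinases and transcription factors known upstream of KLF genes, only Srf rose. Srf, the serum response factor that drives immediate-early genes, went from 69.9 ± 13.7 to 174.5 ± 38.6 CPM without overlap (2.50-fold, log2 1.32, SE 0.17; edgeR adjusted p = 0.000893). The median log2 fold change of that list was 0.00042, near that of all genes. Of 12 endothelial and leukocyte genes known as KLF targets, 3 rose and none fell, among them Thbs1, a matrix glycoprotein (7.28-fold, adjusted p = 0.00282), and the chemokine receptor Ccr7 (2.13-fold, adjusted p = 0.0365). The call of Ccr7 held in 5 of 12 fits that left out 1 library (adjusted p up to 0.0878) and that of Thbs1 in all 12. Over all tested genes, the shares that rose and fell were 2.65% and 3.58%. The nitric oxide synthase gene Nos3, a textbook target of Klf2, was at 80.2 ± 34.8 and 83.5 ± 21.5 CPM (log2 fold change 0.06, adjusted p = 0.972). Nos3 does not stand for the whole list of 12, in which 7 genes had a log2 fold change above 0. S1pr1 of that list was at 125 ± 36.4 and 186 ± 56.1 CPM (0.57, adjusted p = 0.278). Thbd was at 421 ± 112 and 521 ± 206 CPM (0.31, adjusted p = 0.729). Neither S1pr1 nor Thbd passed. Of 16 adipocyte and metabolic targets, 3 rose and none fell: the cell cycle inhibitor Cdkn1a (3.97-fold, adjusted p = 3.99e-05), the adipogenic factor Cebpb (2.97-fold, adjusted p = 0.00473) and the inhibitory Smad7 (1.75-fold, adjusted p = 0.0132); the same shares of all genes stand beside this count. With listed age as a covariate Srf, Thbs1, Cebpb and Smad7 did not pass, and Cdkn1a did. The adipocyte regulators Pparg (0.04) and Cebpa (-0.04) and the glucose transporter Slc2a4 (-0.03) had log2 fold changes near 0 and did not pass. The medians of the target lists were 0.13 and 0.16.

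Markers of the cell types that fat holds were mostly not called. The summed level of 10 endothelial markers ranged from 678 to 1546 CPM with vehicle and from 749 to 1598 CPM with epinephrine; 1 of them, the tight junction gene Cldn5, rose (log2 fold change 1.06, edgeR adjusted p = 0.0355), a call that held in 4 of 12 fits that left out 1 library (adjusted p up to 0.0847), while Pecam1 was at 0.03. The summed adipocyte markers ranged from 9643 to 30209 CPM and from 12506 to 29653 CPM, and the macrophage markers from 826 to 1796 CPM and from 740 to 2160 CPM, with no marker of either list called. None was called among lymphocyte, fibroblast, mesothelial, epididymis and 5 tested skeletal muscle markers. Of 10 smooth muscle and pericyte markers Tagln rose (0.53, adjusted p = 0.0123).

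For the 3 members that passed, the genes with the most similar profile were sought among 13041 genes, by the root mean square (RMS) difference of log2 CPM over the 12 libraries, each gene taken relative to its own vehicle mean. Nearest to Klf6 were the chemokine receptor gene Cxcr4 (RMS 0.15), the chaperone gene Dnajb4 (0.16) and Itprip (0.18). Nearest to Klf4 were Filip1l (0.13), Inka1 (0.13) and Cldn5 (0.14). Nearest to Klf10 were the mismatch repair gene Msh6 (0.12), Saal1 (0.12) and Trim12a (0.12). The measure rewards genes that moved by a like amount, so it describes these libraries and carries no test.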

How the data were processed

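Per the labels' protocols, the epididymal fat RNA of the 12 mice was turned into libraries with the SMARTER mRNA-Seq kit. Groups and replicate numbers come from the sample titles. The authors deposited whole-number counts of reads per gene for 27179 genes, without normalization, and gene lengths in bases; a second deposited table holds variance-stabilized values on a log2-like scale for 20185 genes. HISAT2 and featureCounts, after FastQC and cutadapt and with DESeq2, are listed with the build mm10 in the submitters' processing notes. Their versions, the annotation and the strand setting are not stated there. Gene positions and promoter sequences come from RefSeq (GRCm38.p6).

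Genes with few counts were removed by filterByExpr (minimum count 10, minimum total 15). TMM scaling and the quasi-likelihood test of edgeR followed (robust glmQLFit, then glmQLFTest; R 4.3.3, edgeR 4.0.16, limma 3.58.1), with Benjamini-Hochberg adjustment over 16175 genes and a threshold of 0.05. SE is the unshrunk log2 fold change divided by the square root of F, and the 95% intervals are not adjusted. The common biological coefficient of variation was 0.451. Of the identifiers in the count table, 1312 had no symbol; they stayed in library sizes and tests. Paralog ratios were tested by exact permutation. Log2 CPM used a prior count of 1. The test was run on simulated counts first.

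The members, gene lists and tests were chosen with earlier results of these data known. Genes named besides the members are those past the threshold in each list, up to 4, or the 2 with the smallest p; other examples were chosen after their values were seen. A gene that this rule names is not reported here. Alternatives were 3 other scalings (library size, upper quartile, RLE), no filter, DESeq2 1.42.0, limma on the deposited variance-stabilized values, a block for the replicate number, an epididymis score (mean log2 CPM of its markers) or listed age as a covariate, omission of the 3 Gpx5-rich libraries, replicates 1 to 3 or 4 to 6 alone, and each library left out.

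Deviations from the group mean were shared by libraries of the same number, with correlations across genes of 0.389, 0.797, 0.264, 0.651, 0.485 and 0.675 for numbers 1 to 6, all over 0.1, so the numbers were treated as pairs in that alternative. For 9 of the 12 libraries, however, the highest correlation with the other group was to a different number. The titles give the numbers but not what they share, and pairing cannot be told apart from a shift of both groups between numbers 1 to 3 and numbers 4 to 6. Mice are separate animals per the labels.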

Additional observations from a re-analysis of the deposited data

Results flagged for a closer look

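In 28 sets of 6 libraries checked for 1 library far from the rest (its gap to the next divided by the range, above Dixon's critical value), 3 stood out. Chance alone gives such a library in about 1 in 20 sets. Klf2 stood at 49.3 CPM in vehicle 2, and the other 5 vehicle libraries held 116 to 144 CPM (gap over range 0.703). Klf4 in the same library was at 56.3 CPM, against 114 to 138 CPM (0.705). Vehicle 2 also had the largest share of epididymis markers in the series (4.61% of counts) and the lowest summed adipocyte markers (9643 CPM, where the other 5 of its group had 20715 to 30209 CPM); their part in these values was not tested. Klf10 in epinephrine 3 reached 53.6 CPM, and the rest of that group 39.1 to 44.4 CPM (0.637).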

How the results depend on the processing

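Klf6 was called in 10 of 12 other settings and in all 12 fits that left out 1 library, and its log2 fold change was above 0 in each. The number of members called higher was 0 with listed age as a covariate, 0 in replicates 1 to 3 and 4 without the Gpx5-rich libraries. It was 3 with the epididymis score (Klf4, Klf6 and Klf7), 3 in replicates 4 to 6, and 1 to 2 with 1 library left out. The number called lower was 0 with RLE scaling, without the filter, with limma on the variance-stabilized values and in replicates 1 to 3; it was 2 with age (Klf13 and Klf15), and 2 (Klf10 and Klf15) with library-size scaling, the epididymis score, without the Gpx5-rich libraries and in replicates 4 to 6, and 0 to 2 with 1 library left out. Over all genes, 428 rose and 579 fell. The other counts, higher and lower, were 759 and 884 with DESeq2, 2339 and 1528 with age, 648 and 969 with the epididymis score, 786 and 1028 without the Gpx5-rich libraries, 0 and 0 in replicates 1 to 3, and 696 and 632 in replicates 4 to 6. Library-size scaling gave 360 and 1448 and moved the median log2 fold change of all genes to -0.11; Klf3 there was at -0.067. With 1 library left out the counts were 317 to 549 and 276 to 797. The causes of these shifts were not tested.

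With the replicate number as a block 385 genes rose and 365 fell, Klf10 lost its call and Klf15 gained one, and no other member changed. Paired by number, the paralog differences were -0.353 for Klf2 to Klf4, 1.48 for Klf6 to Klf7 and 0.271 for Klf9 to Klf13, with adjusted p of 0.0625, 0.0625 and 0.125 by an exact sign-flip test of 6 pairs; 0.03125 is the smallest unadjusted p it can give. The Klf9 to Klf13 difference was 0.214 to 0.328 with 1 library left out.

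Signs turned with age as a covariate for Klf2 (-0.21), Klf7 (-0.10), Klf9 (-0.82), Klf14 (-0.92), Inka1 (-0.0021), Acta1 (-0.42), Cd68 (-0.69), Pck1 (-0.48) and Pdgfra (0.63). Klf5 was at 0.069 in replicates 1 to 3. Crisp1 was at -2.50 with the epididymis score, -3.83 without the Gpx5-rich libraries and -0.24 in replicates 4 to 6. With 1 library left out it was -1.69 to 2.15. Lcn5 was at -0.59 with the score and -0.22 to 1.68 with 1 library left out. Over the 12 settings other than leaving 1 library out, Crisp1 ran from -3.83 to 14.5 and Lcn5 from -0.59 to 16.1. Each of the 2 genes was called in 1 of those 12 settings. Listed ages do not overlap between the groups, so this covariate cannot separate age from treatment. Within each group listed age rises with the replicate number, so it cannot be told apart from that number either. The epididymis score was 5.53 in vehicle 1, 10.7 in vehicle 2 and -1.15 in vehicle 6. It was 10.6 in epinephrine 1 and 0.55 in epinephrine 6. The part of the score in the values with age was not tested. The fewest counts were those of Klf5, at 17 to 69 per library; what depth limits was not tested.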
